A study of Mus musculus with 12 samples.

Results

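The Hox cluster genes were taken as every gene of the deposited table whose symbol was Hox followed by a cluster letter (a, b, c or d) and a paralogue number, and 39 of 55385 genes met this rule. The table holds RNA sequencing of brains from male wild-type C57/BL6J mice, bought at 8 weeks of age, with 3 mice and 3 libraries in each of 4 groups. The C_W mice were given water by gavage, the C_O mice 200 mg/kg of krill oil daily over 5 weeks, the MS_W mice chronic unpredictable mild stress (CUMS) for 4 weeks with water, and the MS_O mice CUMS with krill oil. All mice were perfused with saline and the whole brain was taken, and the controls of krill oil were given water and not another oil. A library carries the name of its group followed by the number of its mouse (MS_W95). The study asked whether krill oil alters depression-like behavior and brain gene expression under CUMS, and the Hox genes serve here as a read of how much hindbrain and spinal tissue each library holds.

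Hox genes encode homeodomain transcription factors that give cells their position along the head to tail axis of the embryo. In the mouse they lie in 4 clusters, and genes of low paralogue number, at one end of each cluster, are expressed farther forward than genes of high number at the other end. In the adult brain, low-numbered Hox genes remain on in the hindbrain and spinal cord, while the forebrain, the midbrain and the cerebellum lie in front of the Hox domain, so that a whole brain with its medulla is a mixture of Hox-positive and Hox-negative tissue. The proteins bind DNA together with cofactors of the TALE class (Pbx, Meis and Pknox).

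The a cluster lies on chromosome 6, the b cluster on chromosome 11, the c cluster on chromosome 15 and the d cluster on chromosome 2 of mouse build GRCm38. RefSeq promoter windows (GRCm38.p6, 250 bases before to 50 after each start) were on hand for 22 of the 39 genes, in 24 windows. The windows of Hoxa5 and Hoxb4, which were read in the same libraries, and of Hoxd10, which was listed at 0 in every library, are shown because the clusters are known for promoters rich in CpG. Capitals mark each CG. Hoxa5 is the minus strand of chr6:52204538-52204837, Hoxb4 the plus strand of chr11:96318017-96318316 and Hoxd10 the plus strand of chr2:74691641-74691940.
Hoxa5: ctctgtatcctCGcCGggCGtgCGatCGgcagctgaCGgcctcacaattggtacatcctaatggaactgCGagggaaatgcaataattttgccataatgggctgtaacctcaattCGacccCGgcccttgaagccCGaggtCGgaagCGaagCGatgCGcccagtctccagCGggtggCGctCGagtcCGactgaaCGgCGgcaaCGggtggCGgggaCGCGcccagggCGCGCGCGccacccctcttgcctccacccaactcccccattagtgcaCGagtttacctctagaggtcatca
Hoxb4: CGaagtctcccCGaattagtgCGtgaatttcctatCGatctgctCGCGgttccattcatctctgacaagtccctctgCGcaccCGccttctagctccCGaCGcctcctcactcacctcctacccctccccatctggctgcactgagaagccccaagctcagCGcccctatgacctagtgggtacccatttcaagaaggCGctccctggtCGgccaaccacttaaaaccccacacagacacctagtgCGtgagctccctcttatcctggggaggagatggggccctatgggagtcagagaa
Hoxd10: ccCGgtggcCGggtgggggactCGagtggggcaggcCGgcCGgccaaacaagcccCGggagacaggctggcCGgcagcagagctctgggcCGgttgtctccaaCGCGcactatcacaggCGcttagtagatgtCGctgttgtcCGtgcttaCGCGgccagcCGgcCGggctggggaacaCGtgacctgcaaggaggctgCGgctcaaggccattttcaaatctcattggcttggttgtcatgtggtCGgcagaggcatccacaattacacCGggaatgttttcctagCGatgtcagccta

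These windows held 29 CG in Hoxa5, 14 in Hoxb4 and 22 in Hoxd10. Over the 24 Hox windows the median was 14.5 CG (range 4 to 45), and over 32851 windows of all genes it was 7. At least 10 CG stood in 70.8% of the Hox windows and in 43.5% of all windows. CG content did not separate Hox genes that were read from those that were not. The median was 17 CG in the windows of the 10 genes with an FPKM of at least 0.1 in C_O72, and 14 CG in the 14 windows of the other 12 genes. On either strand, the letters TATAAA were found in 16.7% of Hox windows and 13.6% of all windows, TGATNNAT, a form of the Hox and Pbx motif, in 16.7% and 8.85%, and TGACAG, the Meis motif, in 8.33% and 19.2%. Such matches describe the letters of the window only.

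The FPKM of a gene, its fragments divided by transcript length and by the mapped fragments of the library, was listed for every library, and the floor value of 0.0001, given where nothing was read, is written as 0 here. Estimated counts summed to between 50912906 and 75678721 per library. C_O72 had the lowest total (50912906) and MS_W95 an intermediate one (61608502). Summed over the 39 Hox genes, the level was 45.7 FPKM in C_O72 and 18.1 in MS_W95, and it lay between 0 (MS_W75) and 0.145 (MS_O46) in the other 10 libraries, with a median of 0.0395. The Hox estimated counts were 7001 in C_O72, 3371 in MS_W95 and 0 to 30 in the other 10. The summed level was therefore high in 1 of 3 C_O mice and 1 of 3 MS_W mice, and near 0 in all C_W and MS_O mice. Since these are bulk samples, fewer cells of a type and less RNA per cell cannot be told apart.

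**Figure D1:**
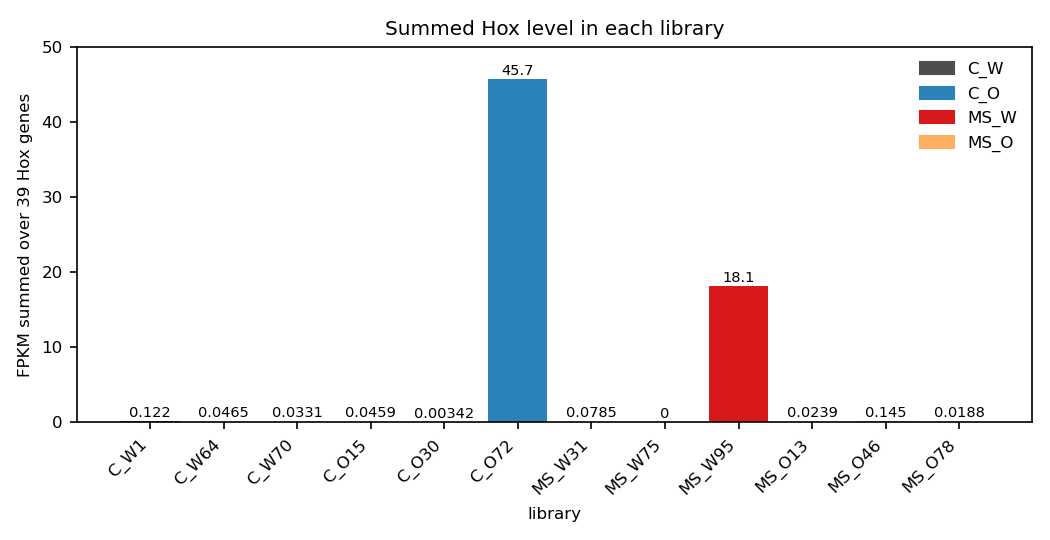
FPKM summed over the 39 Hox genes (vertical axis) in each of the 12 libraries (horizontal axis, bars coloured by group, the value printed above each bar). C_O72 stands at 45.7 and MS_W95 at 18.1, while the other 10 libraries are at 0.145 or below.

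An FPKM of at least 0.1 was reached by 18 Hox genes in C_O72, by 16 in MS_W95 and by 0 in each of the other 10 libraries. The other 10 libraries held 390 Hox values, of which 368 were at 0, and the highest was 0.0684 for Hoxb4 in MS_O46. Of the 39 genes, 15 were at 0 in all 12 libraries and 24 were above 0 in at least 1. For 19 genes, both C_O72 and MS_W95 were above all of the other 10 libraries. The remaining 5 of the 24 were Hoxa6, at 0.304 FPKM in C_O72 alone, and Hoxa7, Hoxb7, Hoxc8 and Hoxc9, at 0.0656 or below wherever they were read.

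**Figure D2:**
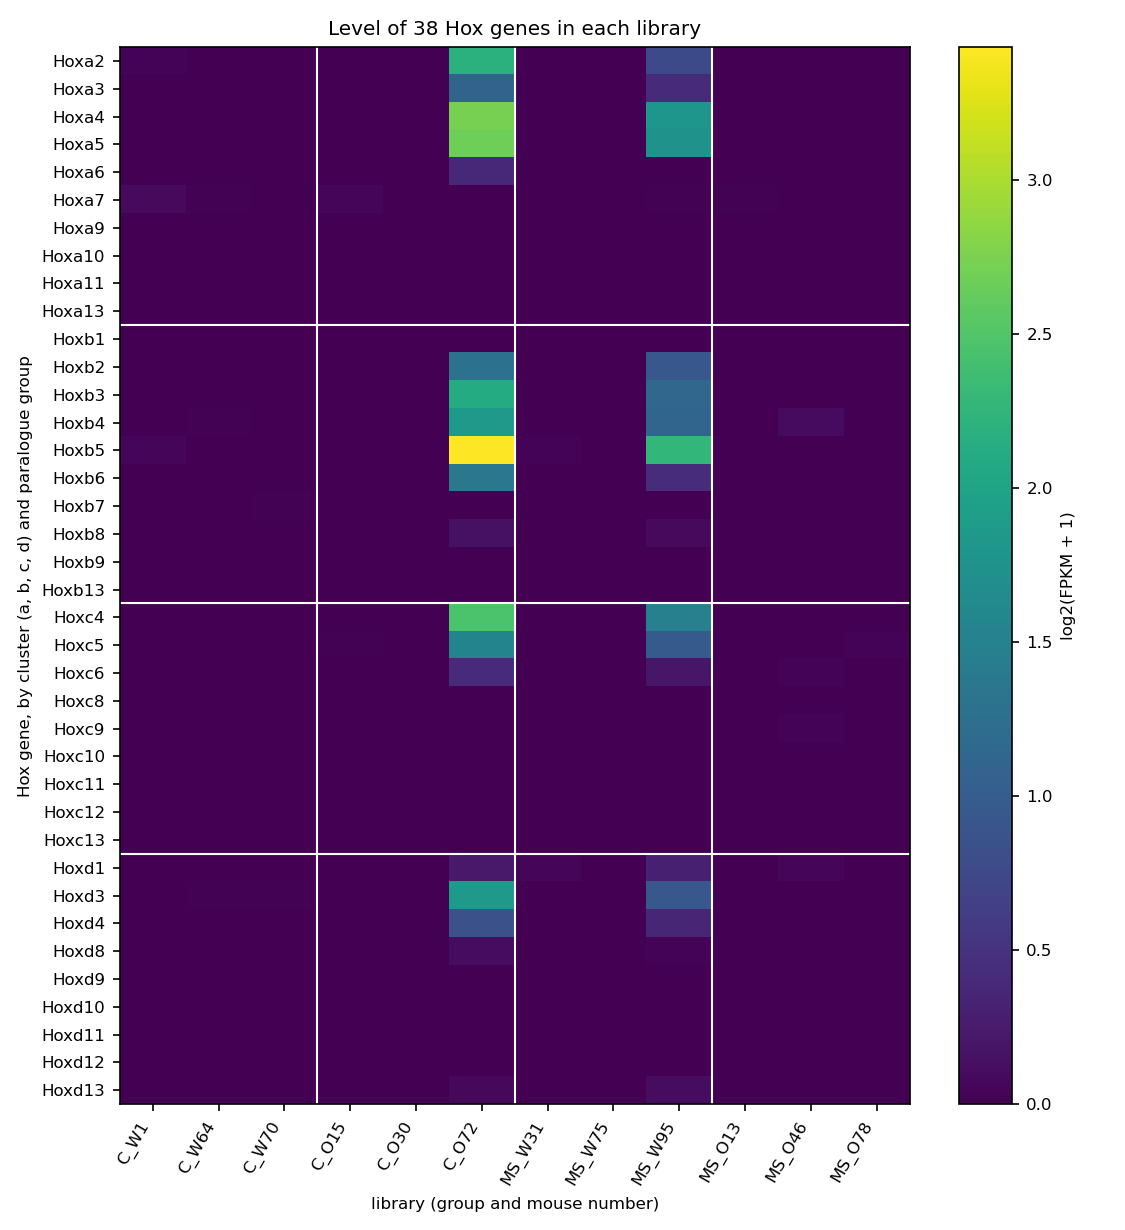
Level of 38 of the Hox genes as log2(FPKM + 1), with genes in rows by cluster and paralogue number and the 12 libraries in columns, where white lines part the clusters and the groups. Signal is seen in the C_O72 and MS_W95 columns, mostly in paralogue groups up to 6 (Hoxb1 is dark), while the rows of the highest numbers are dark in every library.

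Hoxa2 and Hoxb2 make up paralogue group 2. Hoxa2, whose domain reaches farther forward than that of any other Hox gene, was at 3.56 FPKM in C_O72, 0.703 in MS_W95 and 0.0247 in C_W1, and at 0 in the other 9 libraries. Hoxb2, a target of the hindbrain regulator Egr2 in the embryo, was at 1.44 FPKM in C_O72, 0.909 in MS_W95 and 0 in the other 10 libraries. Both genes had the same 2 libraries on top, but Hoxa2 was 5.07 times and Hoxb2 1.58 times as high in C_O72 as in MS_W95, the widest and the narrowest ratio among the 10 genes with an FPKM of at least 0.5 in both.

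Group 3 genes pattern the caudal hindbrain. Hoxa3 was at 1.14 FPKM in C_O72, 0.333 in MS_W95 and 0 in the other 10 libraries. Hoxb3 was at 3.31 FPKM in C_O72, 1.19 in MS_W95 and 0 in the other 10. Hoxd3 was at 2.61 FPKM in C_O72, 0.906 in MS_W95, 0.0114 in C_W64, 0.0106 in C_W70 and 0 in the other 8. The 3 genes kept the same order of libraries, and the traces of Hoxd3 in C_W libraries were of 4 estimated counts each against 628 in C_O72. Hoxd3 shares exons with Hoxd4 and Gm28230 on its strand, and Hoxa3 with Gm28308, so that the split of signal between them is uncertain.

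Group 4 genes mark the medulla and the upper spinal cord. Hoxa4 was at 5.63 FPKM in C_O72, 2.48 in MS_W95 and 0 in the other 10 libraries. Hoxc4 was at 4.51 FPKM in C_O72, 1.82 in MS_W95 and 0 in the other 10. Hoxb4 was at 2.59 FPKM in C_O72, 1.18 in MS_W95, 0.0684 in MS_O46, 0.0186 in C_W64 and 0 in the other 8. Every group 4 gene was read, since Hoxd4 was at 0.811 FPKM in C_O72 and 0.296 in MS_W95, with 0 in the other 10.

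Group 5 held the highest single level. Hoxb5 was at 9.78 FPKM in C_O72, 3.83 in MS_W95, 0.0315 in C_W1, 0.0210 in MS_W31 and 0 in the other 8 libraries. Hoxa5, which is needed for the neurons that drive breathing, was at 5.36 FPKM in C_O72, 2.39 in MS_W95 and 0 in the other 10. Hoxc5 was at 1.94 FPKM in C_O72, 0.958 in MS_W95, 0.0188 in MS_O78, 0.0153 in C_O15, 0.00342 in C_O30 and 0 in the other 7. Hoxb5 led both libraries, and its 1561 and 742 estimated counts were the most of any Hox gene in either library.

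Beyond group 5 the levels were lower. Hoxb6 was at 1.58 FPKM in C_O72, 0.353 in MS_W95 and 0 in the other 10 libraries. Hoxc6 was at 0.325 and 0.153 FPKM in the same 2 libraries and at 0.0244 in MS_O46. No gene of groups 7 to 13 reached 0.1 FPKM in any library except Hoxb8, at 0.118 in C_O72 and 0.0663 in MS_W95. Of the 16 genes of groups 9 to 13, 14 were at 0 in all 12 libraries, and the exceptions were Hoxc9, at 0.0203 FPKM in MS_O46, and Hoxd13, at 0.0529 in C_O72 and 0.0871 in MS_W95. Genes of the lower spinal cord were thus at or near 0 in every library.

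Group 1 was also low. Hoxb1, which marks a single segment of the embryonic hindbrain, was at 0 in all 12 libraries. Hoxd1 was at 0.176 FPKM in C_O72, 0.231 in MS_W95, 0.0315 in MS_W31 and 0.0316 in MS_O46. Hoxd1 and Hoxd13 were the genes read in both libraries whose level was higher in MS_W95 than in C_O72, from 19 against 30 and 8 against 16 estimated counts.

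Summed by paralogue group, the level climbed from group 2 to group 5 in both libraries and was lower in every later group. In C_O72 the sums of groups 2 to 6 were 5.00, 7.06, 13.5, 17.1 and 2.21 FPKM. In MS_W95 they were 1.61, 2.43, 5.78, 7.17 and 0.506 FPKM. Groups 2 to 5, with 12 of the 39 genes, held 93.4% of the Hox signal in C_O72 and 94.0% in MS_W95. The clusters shared the signal alike in both libraries, with 35.8% and 33.7% in cluster a, 41.2% and 41.6% in b, 14.8% and 16.2% in c, and 8.18% and 8.52% in d.

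**Figure D3:**
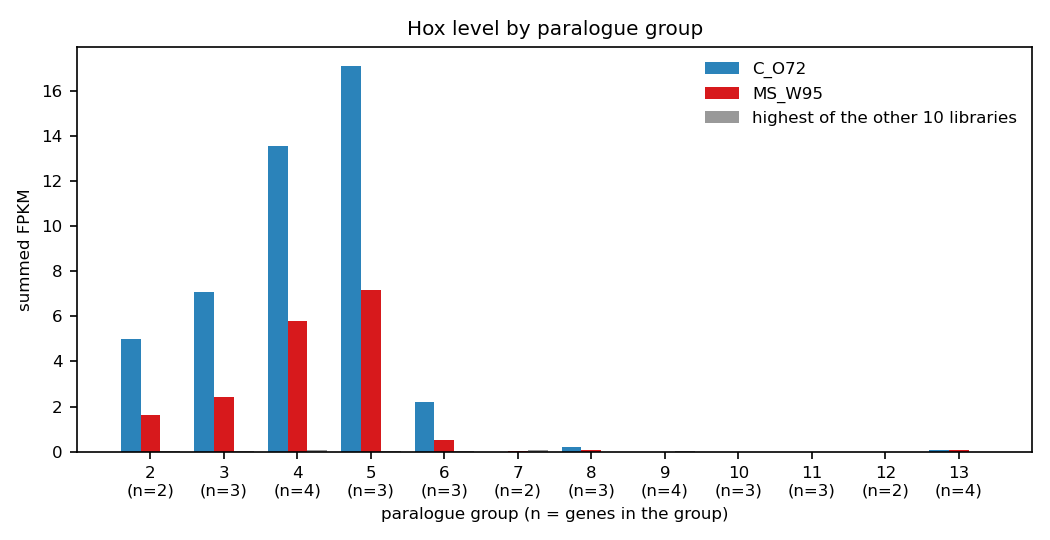
Summed FPKM (vertical axis) of the Hox genes of paralogue groups 2 to 13 (horizontal axis, with the number of genes) in C_O72, in MS_W95 and in the library with the highest sum among the other 10. Both libraries peak at group 5 (17.1 and 7.17 FPKM), and the third bar does not pass 0.0684 in any group.

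The ratio of C_O72 to MS_W95 was 2.53 for the summed FPKM and had a median of 2.37 over the 10 genes with at least 0.5 FPKM in both. Over all 14877 tested genes that met the same limit, the median ratio was 0.953, and 10.5% had a ratio of at least 1.5, as all 10 Hox genes had. By paralogue group the ratio was 3.10 in group 2, 2.91 in group 3, 2.34 in group 4, 2.38 in group 5 and 4.36 in group 6. Across the 19 genes above 0 in both, Spearman's rho between the libraries was 0.947 and Pearson's r of the log2 FPKM was 0.943, as a description of 2 libraries whose genes share depth and tissue. Each of these ratios comes from 1 mouse against 1 mouse, so that none has a replicate error.

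The pairwise comparisons of the groups ask whether CUMS (C_W vs. MS_W and C_O vs. MS_O) or krill oil (C_W vs. C_O and MS_W vs. MS_O) changed gene expression. Hox levels differed less between groups than between mice of a group, as the C_O group ran from 0.00342 (C_O30) to 45.7 summed FPKM and the MS_W group from 0 to 18.1. Of the 39 genes, 12 reached a mean of 0.1 FPKM over all libraries and entered the fit of 21393 genes, and each of them passed through C_O72 and MS_W95. No Hox gene met the study's criteria for a differentially expressed gene (DEG), an unadjusted p under 0.05 with a ratio of group means beyond 2-fold, in limma in any of the 4 comparisons or in the interaction of CUMS and krill oil. Of all tested genes, 4.59% were DEGs in C_W vs. MS_W, 3.57% in C_O vs. MS_O, 1.76% in C_W vs. C_O, 2.81% in MS_W vs. MS_O and 4.74% in the interaction. The count of Hox genes at an unadjusted p under 0.05 was also 0 in each, against 10.5%, 8.88%, 3.55%, 6.09% and 7.23% of all tested genes. At an adjusted p under 0.05 the Hox count was 0 by limma and by edgeR, where limma called 0.00467% of all tested genes in C_W vs. MS_W, C_O vs. MS_O and MS_W vs. MS_O and 0% in the rest.

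In C_W vs. MS_W, the median of the 12 log2 fold changes (differences of mean log2(FPKM + 1), which understate the change of low genes) was 0.34, beside 0.06 over all tested genes. The smallest p belonged to Hoxb2, which had a log2 fold change of 0.31 (SE 0.33, limma, adjusted p = 0.726). Hoxa4 had a log2 fold change of 0.60 (SE 0.68, limma, adjusted p = 0.739), and Hoxa5 of 0.59 (SE 0.66, limma, adjusted p = 0.739). Each standard error exceeded its fold change, and the groups overlapped for every tested Hox gene, where 16.3% of all tested genes did not overlap with MS_W higher and 8.22% with MS_W lower. Without MS_W95 the median was 0.

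In C_O vs. MS_O, the median was -0.66, beside 0.03 over all tested genes, with the MS_O side lower. Hoxb6 had a log2 fold change of -0.46 (SE 0.30, limma, adjusted p = 0.676), Hoxa2 of -0.73 (SE 0.48, adjusted p = 0.676) and Hoxa3 of -0.37 (SE 0.25, adjusted p = 0.681). All 3 were at 0 in the MS_O libraries, in C_O15 and in C_O30, so that C_O72 alone set each value, and without it the median over the 6 genes then tested was 0. No tested Hox gene was without overlap, beside 8.9% of all tested genes with MS_O higher and 3.29% with MS_O lower. By edgeR's quasi-likelihood test on the estimated counts, 3 Hox genes met the study's criteria with MS_O lower, beside 3.38% of all tested genes, and the smallest adjusted p was 0.584.

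In C_W vs. C_O, the median was 0.66, beside 0.0017 over all tested genes. Hoxb6 had a log2 fold change of 0.46 (SE 0.30, limma, adjusted p = 0.908), Hoxa2 of 0.72 (SE 0.48) and Hoxa3 of 0.37 (SE 0.25), at the same adjusted p. The groups did not overlap for 1 Hox gene, Hoxc5, which was above 0 in all 3 C_O libraries and at 0 in all 3 C_W libraries, beside 4.08% of all tested genes with C_O higher and 5.34% with C_O lower. Of those Hoxc5 values, 1.94 FPKM was in C_O72 and the other two were 0.0153 and 0.00342, from 4 and 1 estimated counts. Without C_O72 the median was 0. By edgeR 1 Hox gene met the study's criteria with C_O higher, beside 2.44% of all tested genes, at an adjusted p of 0.936.

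In MS_W vs. MS_O, the median was -0.33, beside -0.02 over all tested genes. Hoxb2 had a log2 fold change of -0.31 (SE 0.33, limma, adjusted p = 0.868), Hoxb5 of -0.77 (SE 0.85, adjusted p = 0.873) and Hoxa4 of -0.60 (SE 0.68, adjusted p = 0.875). No tested Hox gene was without overlap, beside 4.64% of all tested genes with MS_O higher and 7.66% with MS_O lower. Without MS_W95 the median was 0. EdgeR called 0 Hox genes by the study's criteria here, beside 2.67% of all tested genes, and 0 in C_W vs. MS_W, beside 4.59%.

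The interaction compares the change with CUMS under krill oil with the change under water, and its median was -0.96, beside -0.02 over all tested genes. Hoxb2 had an interaction of -0.74 (SE 0.47, limma, adjusted p = 0.665), Hoxb5 of -1.90 (SE 1.204) and Hoxa4 of -1.51 (SE 0.96), at the same adjusted p. These genes were high in 1 C_O and 1 MS_W mouse, and both enter the interaction with the same sign. By edgeR all 12 tested Hox genes met the study's criteria in the interaction, beside 5.59% of all tested genes, with unadjusted p from 0.0145 to 0.0336 and a smallest adjusted p of 0.606, all for genes whose signal lay in C_O72 and MS_W95. The 5 comparisons share libraries and are not independent of each other.

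The label of the samples, brain, was checked against genes of brain regions. Of 10 tested genes of hindbrain and spinal neurons, 10 had C_O72 and MS_W95 as the 2 highest libraries, beside 16.3% of all tested genes, though several passed the filter only through these libraries. Their sum, over the 12 genes of the list, was 72.7 and 30.5 FPKM in these libraries and 0.431 to 1.05 in the other 10. Slc6a5, the transporter of glycinergic neurons, was at 47.2 and 16.4 FPKM against at most 0.0538, and Glra1, a glycine receptor subunit, at 10.2 and 2.79 against at most 0.365. Lbx1, a factor of dorsal hindbrain and spinal neurons, was at 3.50 and 1.91 FPKM against at most 0.0234. The list's ratio of C_O72 to MS_W95 was 2.38, beside 2.53 for the Hox genes, but it was 1.81 without Slc6a5. Of the 12 genes, 8 were higher in C_O72 and 4 in MS_W95, among them the spinal and hindbrain factors Tal1, at 0.944 and 1.79 FPKM, and Gata3, at 1.20 and 1.64. The motor neuron gene Mnx1 was low, at 0.0584 and 0.0719 FPKM, and at 0 elsewhere.

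Genes of brainstem monoamine and cholinergic neurons were high in the same libraries, with sums of 40.2 and 47.8 FPKM against 0.619 to 5.96, but not in the same order. Tph2, the enzyme of serotonin synthesis in the raphe, was at 3.13 FPKM in C_O72 and 20.5 in MS_W95 against at most 0.389. Prph, an intermediate filament of neurons that project to the periphery, was at 24.7 and 7.08 FPKM against at most 0.611. Of the 7 tested genes, 5 had both libraries highest, beside 16.3% of all tested genes, though some passed the filter only through these libraries. The exceptions were the cholinergic genes Chat, at 2.75 FPKM in MS_W75, and Slc5a7, at 2.49 in MS_W75.

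Cerebellar genes, which lie in front of the Hox domain, ran against the Hox order. Their sum was 191 FPKM in C_O72, 762 in MS_W95 and 2.35 to 4.40 in the other 10 libraries, so that MS_W95 was 3.99 times as high as C_O72 where its Hox sum was the lower. Gabra6, a receptor subunit of granule cells, was at 23.9 and 91.3 FPKM against at most 0.129, and Pcp2 of Purkinje cells at 31.3 and 114 against at most 0.212. En1, a factor of the midbrain and hindbrain border, was at 0.768 FPKM in C_O72, 3.74 in MS_W95 and 0 in the other 10. Car8, another Purkinje cell gene, was at 48.0 and 222 FPKM and was read in each of the other 10 libraries, at 1.46 to 2.40.

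**Figure D4:**
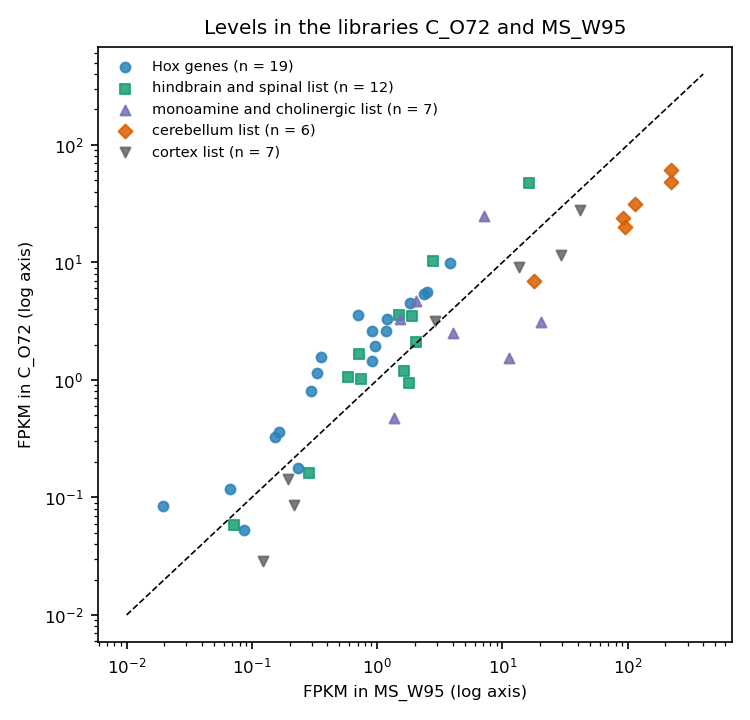
FPKM in C_O72 (vertical, log axis) against FPKM in MS_W95 (horizontal, log axis) for the Hox genes and 4 gene lists that were above 0 in both, 1 point a gene, with the dashed line where both are equal. Most Hox and hindbrain and spinal genes lie above the line, and the 6 cerebellar genes lie below it.

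Cortical genes were low where Hox genes were high. The cortical sum was 52.1 FPKM in C_O72 and 88.2 in MS_W95, against 360 to 740 in the other 10, and 7 of 8 tested genes had these as the 2 lowest libraries, beside 11.7% of all tested genes. Camk2a, a kinase abundant in forebrain excitatory neurons, was at 9.13 and 13.6 FPKM against 174 to 355. The exception was Neurod2, at 11.4 and 29.6 FPKM against 9.55 to 24.1. Striatal genes were lowest in both for 3 of 7, among them Drd1, a dopamine receptor, at 0.0807 and 0.144 FPKM against 2.51 to 26.0. The striatal sums, 130 and 145 FPKM, lay within the 88.9 to 948 of the other 10 libraries, as did the enkephalin gene Penk, at 82.8 and 84.9 FPKM against 38.8 to 468. Hypothalamic sums, 3.94 and 2.57 FPKM, also lay within those of the other 10, at 1.14 to 99.0, so low levels in both libraries were seen for the cortical list and not for these lists as a whole. The part of region content in the Hox values was not tested.

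Other tissues near the hindbrain were read from their own lists. Of all tested genes, 16.3% had C_O72 and MS_W95 as the 2 highest libraries, to be set beside each count below. A few listed genes passed the filter only through these libraries. Myelin genes, abundant in white matter, were highest in both libraries for 5 of 5, with sums of 1029 and 554 FPKM against 200 to 403. Choroid plexus genes were highest in both for 5 of 5, with sums of 4822 and 1809 FPKM against 2.22 to 839, and the 839 was in C_W1, where Hox genes were near 0. Meningeal and fibroblast genes were highest for 3 of 5, with sums of 18.3 and 10.4 FPKM against 4.12 to 9.47. Genes of peripheral glia summed to 1.23 and 1.21 FPKM against 0.381 to 0.901, and their defining gene Pmp2 was at 0 in both. Genes of sensory ganglia summed to 8.88 and 3.28 FPKM against 0.261 to 1.27. Calca, which motor neurons also express, held most of that sum, at 8.71 and 2.96 FPKM against at most 1.06, and Avil was also highest in both, at 0.151 and 0.323 against at most 0.118, while Scn10a was at 0.00825 and 0, Trpv1 at 0.0178 and 0, and Mrgprd at 0 in all 12. Skeletal muscle genes summed to 1.12 and 2.99 FPKM, below the 4.59 to 7.67 of the other 10, where Acta1 held 4.17 to 6.77. Tnnt3, a muscle troponin, was highest in both, at 0.447 and 0.909 FPKM against at most 0.319, and Ckm, muscle creatine kinase, was highest in MS_W95, at 0.262 against at most 0.127 in the other 10. Midbrain genes were highest in both for 2 of 4 tested and hypothalamic genes for 0 of 7.

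**Figure D5:**
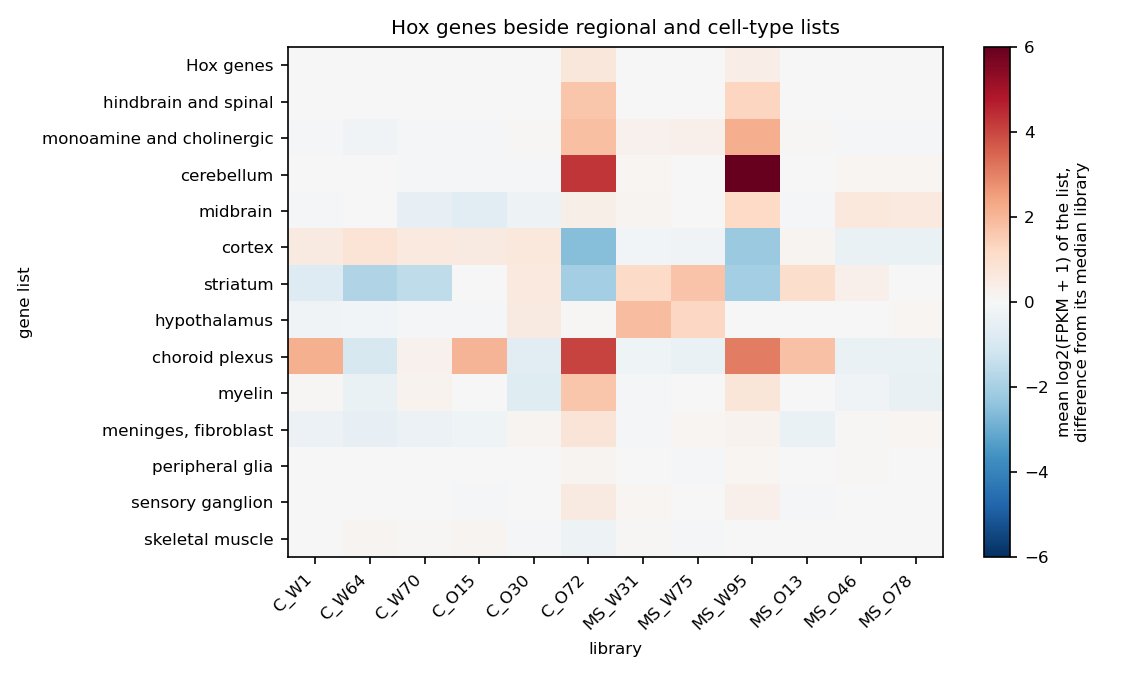
Mean log2(FPKM + 1) of the Hox genes and of 13 gene lists (rows) in each library (columns), coloured by the difference from the median library of that row. The C_O72 and MS_W95 columns are red for hindbrain and spinal, monoamine and cholinergic, cerebellar, choroid plexus and myelin genes and blue for cortical and striatal genes. The red is faint for Hox genes, whose means were 0.699 and 0.395, and for myelin genes in MS_W95.

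Other genes inside the Hox clusters followed the Hox genes or were not read. Of 16 such genes, 6 had C_O72 and MS_W95 highest, beside 16.3% of all tested genes, and 8 were at 0 in all 12 libraries. Most of the 16 were below the filter of the tested genes. Hotairm1, a noncoding RNA of cluster a, was at 3.33 FPKM in C_O72, 0.803 in MS_W95, 0.127 in MS_W31, 0.0202 in MS_W75 and 0 in the other 8. Evx1 and Evx2, homeobox genes at the high-numbered ends of clusters a and d that mark spinal interneurons, were at 0.878 and 0.657 FPKM in C_O72, 0.269 and 0.211 in MS_W95 and 0 in the other 10. They lay beside Hoxa13, at 0 in every library, and Hoxd13. The antisense or host transcripts Hoxb3os, Hoxaas2 and Hoxaas3 were at 0.953, 0.915 and 0.178 FPKM in C_O72 and at 0.0556, 0.242 and 0.0553 in MS_W95. Mir196a-1 and Hoxb5os were read in C_O72 alone, at 0.466 and 0.140 FPKM. Hotair, Hottip, Hoxa11os, Hoxd3os1, Mir10a, Mir10b, Mir196a-2 and Mir196b were at 0 in all 12 libraries, which hold poly(A) RNA and were not made to read mature microRNAs.

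The TALE cofactors of the Hox proteins were expressed in every library, and their sum was 47.8 FPKM in C_O72 and 44.9 in MS_W95, against 50.4 to 124 in the other 10. All 9 were tested. In C_O vs. MS_O, 4 of 9 met the study's criteria, each with MS_O higher, beside 3.57% of all tested genes, and 0 passed an adjusted p of 0.05 in limma. Pknox1 was at 0.933, 0.569 and 2.28 FPKM in C_O15, C_O30 and C_O72 and at 1.89, 4.03 and 3.76 in MS_O13, MS_O46 and MS_O78, with overlap between the groups (log2 fold change 0.93, SE 0.30, limma, adjusted p = 0.479). Meis2 and Pbx3 were also among them, with log2 fold changes of 1.48 (SE 0.59) and 1.66 (SE 0.63). Pknox1 also met the criteria in the interaction, as 1 of 2 cofactors, beside 4.74% of all tested genes. No cofactor did in the other 3 comparisons, beside 1.76% to 4.59% of all tested genes. Meis1 was the cofactor with C_O72 and MS_W95 highest, led by 2.39 FPKM in C_O72, against at most 1.57 in the other 10.

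Of 13 genes that act upstream of Hox genes in the embryo, 8 were tested. Cyp26b1, which breaks down retinoic acid, was at 6.43 and 4.08 FPKM in C_O72 and MS_W95 against at most 1.70. Egr2, a regulator of hindbrain segments in the embryo and an activity-induced gene in the adult forebrain, was at 0.128 and 0.0133 FPKM against at least 2.07. Cdx2 and Cdx4, activators of posterior Hox genes, were at 0 in all 12. In C_W vs. MS_W, 1 of 8 met the study's criteria with MS_W higher and 1 with MS_W lower, beside 4.59% of all tested genes. The gene with MS_W higher was the retinoic acid receptor Rarb (log2 fold change 1.16, SE 0.44, limma, adjusted p = 0.421). In C_W vs. C_O, 1 of 8 met the criteria, beside 1.76% of all tested genes. It was Aldh1a2, which makes retinoic acid, with C_O higher (1.18, SE 0.43, limma, adjusted p = 0.908). None of the 8 met the criteria in C_O vs. MS_O, MS_W vs. MS_O or the interaction, beside 3.57%, 2.81% and 4.74% of all tested genes. Of 12 chromatin regulators of Hox genes, such as Ezh2 and Suz12 of the Polycomb repressive complex and Kmt2a, all were tested. In each comparison 0 met the criteria, beside 1.76% (C_W vs. C_O) to 4.74% (interaction) of all tested genes.

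Among 15839 other genes whose mean FPKM was 0.5 or more, those whose log2(FPKM + 1) followed the summed Hox level most closely over the 12 libraries included Slc6a5, Irx2, Gm19461, Mab21l2, S100b, Vwa7 and Epn3, with Pearson's r from 0.988 to 0.999. These r rest on C_O72 and MS_W95, which lie apart from the other 10, and over the other 10 libraries the r of these 7 genes ran from -0.43 to 0.32. Irx2, a homeobox factor, was at 7.67 FPKM in C_O72, 4.20 in MS_W95 and at most 0.101 in the other 10. Mab21l2 was at 17.6, 7.86 and at most 0.408 FPKM. S100b, a calcium-binding protein of glia, was at 392 and 329 FPKM and was also well expressed elsewhere, at 69.3 to 89.6.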

How the data were processed

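Poly(A) RNA of 12 mouse brains, 3 per group, was sequenced as paired reads on libraries that mark the strand. After read filtering, alignment by HISAT and transcript assembly by StringTie, the authors took FPKM from StringTie and Ballgown (the submitters' processing notes name HISAT2 2.0.4, StringTie 1.3.4d, cutadapt 1.9 and build mm10). The deposited table gives an FPKM and an estimated count for each gene, and a gene without signal stands at an FPKM of 0.0001. The estimated counts of the authors derive from coverage and are not counts of reads, so no counting interval is given. Whether the strand was used, and how reads with several alignments were treated, is not given in the sources used here. Of the 39 Hox genes, 16 share exons with another gene in GENCODE release 21, on either strand, and their values are uncertain to that extent.

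From these files, log2(FPKM + 1) of 21393 genes (mean FPKM 0.1 or more over all libraries) was fitted with limma 3.58.1 under R 4.3.3, using an eBayes trend and the 4 groups in 1 fit, two-sided p and Benjamini-Hochberg adjustment over all tested genes. Tried as alternatives were a pseudocount of 0.1 or 0.01, testing every gene read or those with a mean FPKM of 1 or more, quantile normalization, centring on library medians, only the 2 groups compared, leaving out each library, and edgeR 4.0.16 and DESeq2 1.42.0 on the rounded estimated counts. The tests were checked on simulated data. Other steps used Python 3.11.15 with pandas 2.3.3, and matplotlib 3.10.9 for the plots. Hox genes with an FPKM of at least 1 in any library were given by library, the 3 genes with the smallest p were named in each comparison, and up to 4 genes of the highest mean of a list, with further genes chosen after their values were seen. The genes, the lists and the libraries to leave out were chosen with earlier results of these data known. Whether samples shared a batch is not stated in the labels. Behavior and lipid data were not analysed here. The values of a few single genes are not reported here.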

Additional observations from a re-analysis of the deposited data

How the results depend on the processing

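In limma, no Hox gene met the study's criteria in any comparison under any alternative, and the count without each library in turn ran from 0 to 0. By edgeR the counts were 3 in C_O vs. MS_O, 1 in C_W vs. C_O and 12 in the interaction. DESeq2 gave no p for any of the 12 tested Hox genes. The 10 libraries without C_O72 and MS_W95 gave no value, since no Hox gene then passed the filter.

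The median log2 fold changes depended on the constant added before the log. In C_W vs. MS_W, C_O vs. MS_O, C_W vs. C_O, MS_W vs. MS_O and the interaction they were 1.14, -1.64, 1.58, -1.11 and -2.61 with a pseudocount of 0.1, and 2.18, -2.73, 2.53, -2.17 and -4.68 with 0.01. By edgeR they were 8.77, -10.5, 10.004, -9.28 and -18.9, and by DESeq2 22.8, -24.1, 24.0, -22.7 and -45.3, and these bound no fold change. With a mean FPKM of at least 1, where Hoxb5 alone was tested, the interaction was -1.90. Leaving out 1 library at a time, the medians ran from 0 to 0.54, from -0.93 to 0, from 0 to 0.92, from -0.54 to 0 and from -1.26 to -0.54. The 0 came without MS_W95 in both comparisons of MS_W and without C_O72 in both comparisons of C_O.

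At FPKM limits of 0.5 and 1, MS_W95 held 10 and 6 Hox genes, while the other 10 libraries held 0. At 10 estimated counts the highest of the other 10 held 1. The ratio of summed Hox level in C_O72 to MS_W95 moved by less than 1.5 times under the other units and scalings. Each value of C_O72 and MS_W95 comes from 1 mouse. No paired analysis was possible because the mouse numbers of the groups are all different.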
